A study of Mus musculus with 36 samples.

Results

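Doxycycline, an antibiotic used to switch transgenes on or off, was added to mouse pancreatic epithelial organoids (CIY_organoid) in 2 of 4 RNA-seq libraries, and genes were read that differed the same way in both pairs of libraries. Organoids are epithelial cells grown as hollow or budding structures in a gel with growth factors. The 4 groups were organoids with doxycycline (PlusDox, 1 µg/mL from plating) under SB505124 (2.5 µM, 6 h), a blocker of TGFβ receptor kinase activity, and their match without doxycycline (NoDox) under SB505124, then PlusDox under TGFβ (100 pM, 1.5 h) and NoDox under TGFβ. Each condition had 1 library, so the effect of doxycycline was read as 2 ratios, PlusDox over NoDox within SB505124 and within TGFβ, which share no library. The gene that doxycycline controls in these organoids, their genotype and the meaning of CIY are not given in the sources used here, nor is it stated whether the 4 libraries came from separate cultures.

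RAS proteins are small GTPases that growth factor receptors switch on, and that pass the signal through RAF and MEK kinases to ERK. ERK phosphorylates transcription factors, and the genes it induces include its own inhibitors (DUSP phosphatases, Sprouty proteins), AP-1 factors and EGF family ligands.

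Values are normalised read counts, the authors' read counts divided by 1 factor per library. A library held 35.81 M reads (PlusDox SB505124), 32.91 M (NoDox SB505124), 23.91 M (PlusDox TGFβ) or 26.89 M (NoDox TGFβ), and 1 read was worth between 0.744 and 1.13 units. Ratios are log2 of (PlusDox + 1) over (NoDox + 1), folds are the same ratio on the linear scale, and a gene was called in a pair when the ratio was at least 2-fold and its exact 95% counting interval excluded 1. These intervals cover counting error only, and with 1 library per condition the calls carry no p-value. Of 18758 genes in the table, 13443 averaged 10 or more across the 4 conditions and were tested.

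The libraries were epithelial in all 4 conditions. All 10 ductal markers were present, with a summed value of 225876 (PlusDox) and 270730 (NoDox) under SB505124, and 279943 (PlusDox) and 209359 (NoDox) under TGFβ. Of 9 endocrine markers 6 had an entry, and these summed to under 4 in every library, with Gcg and Sst at 0 throughout. Acinar markers (10 of 12 with an entry) summed to between 191.3 and 414.6 and fibroblast markers (7 of 8) to between 10.4 and 66.5. Immune and endothelial markers (9 of 10) summed to between 323.6 and 426.7. The fibroblast sum was lowest in the PlusDox SB505124 library (10.4), against 66.5 in its NoDox match. In bulk RNA, fewer cells of a type and less RNA per cell cannot be told apart.

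Doxycycline went with a broad difference in expression, and most genes called in either pair alone were called the same way in the other. Under SB505124, 1051 genes were called higher (7.82% of those tested) and 1272 lower (9.46%). Under TGFβ, 1018 were called higher (7.57%) and 1253 lower (9.32%). In both pairs together, 707 genes were called higher (5.26%) and 815 lower (6.06%), and 12 were called in opposite directions (0.0893%). A further 789 genes were called under SB505124 only and 737 under TGFβ only. The shares of 5.26% higher and 6.06% lower are those to set beside the both-pair counts of each gene list below. Of the genes called higher under SB505124, 67.3% were also called higher under TGFβ, and of those called higher under TGFβ, 69.4% were also called under SB505124. For the lower calls these shares were 64.1% and 65%. Across the 13443 genes the ratios of the pairs had a Pearson correlation of 0.806 and a Spearman correlation of 0.823, as a description over genes, which are not independent replicates. The median ratio of all tested genes was 0.00 under SB505124 and −0.01 under TGFβ. At least 4-fold differences in both pairs were found for 127 higher and 171 lower genes. Close to the threshold, Iars (ratios 1.10 under SB505124 and 1.00 under TGFβ) was just inside and Zbtb3 (1.03 under SB505124 and just under 1 under TGFβ) just outside.

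**Figure D1:**
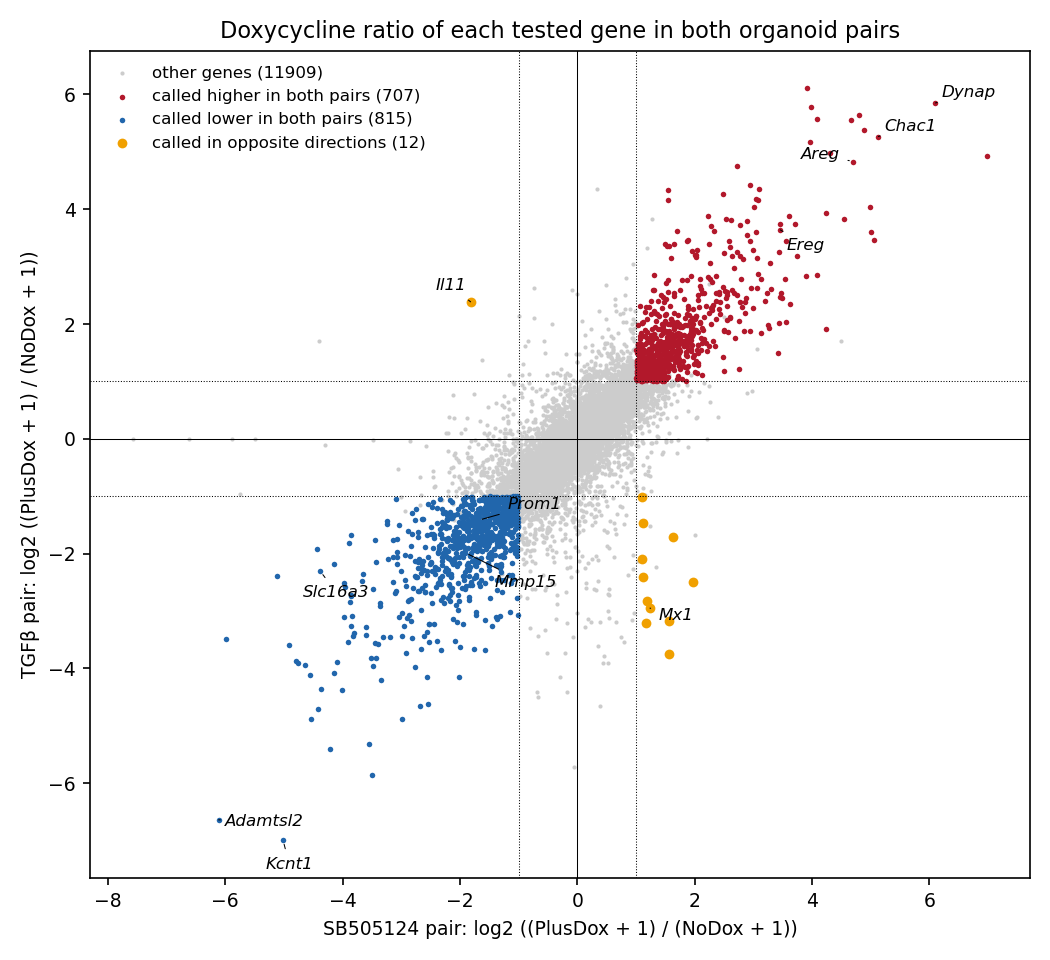
Log2 ratio of PlusDox over NoDox for each tested gene under SB505124 (horizontal axis) and under TGFβ (vertical axis), with dotted lines at 2-fold. The 707 genes called higher and the 815 called lower in both pairs lie in the upper right and lower left, and 11 of the 12 genes called in opposite directions lie in the lower right, with Il11 alone in the upper left.

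Most of the 22 RAS, RAF, MEK and ERK cascade genes differed little with doxycycline, and 0 were called lower in both pairs. Hras had 2519 in PlusDox and 2132 in NoDox under SB505124, and 2362 in PlusDox and 1739 in NoDox under TGFβ (ratios 0.24 and 0.44). Nras had ratios of −0.09 under SB505124 and 0.02 under TGFβ. Over the 22 cascade genes the median ratio was 0.06 under SB505124 and 0.11 under TGFβ, close to that of all tested genes. The kinase gene Braf had ratios of 0.36 under SB505124 and 0.43 under TGFβ.

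Of the 22 genes listed as ERK output and feedback, which ERK signalling is known to induce, 11 were called higher in both pairs, against 5.26% of all tested genes, and 0 were called lower. Their median ratio was 0.95 under SB505124 and 1.17 under TGFβ. Dusp6, the phosphatase that removes activating phosphates from ERK, had 4702 in PlusDox and 1205 in NoDox under SB505124, and 3848 in PlusDox and 1241 in NoDox under TGFβ (ratios 1.96 and 1.63). Dusp5, its nuclear relative, had 642.0 in PlusDox and 174.5 in NoDox under SB505124, and 440.2 in PlusDox and 64.1 in NoDox under TGFβ. Spry4, a Sprouty inhibitor of receptor signalling, had 388.3 in PlusDox and 44.9 in NoDox under SB505124, and 191.3 in PlusDox and 25.2 in NoDox under TGFβ. For each of these 3 inhibitors both PlusDox libraries were above both NoDox libraries, an order held by 34.3% of all tested genes. The ETS factor gene Etv4 had 807.9 in PlusDox and 194.3 in NoDox under SB505124, and 911.0 in PlusDox and 364.6 in NoDox under TGFβ. Plaur, encoding the urokinase receptor, had 8883 in PlusDox and 2523 in NoDox under SB505124, and 6308 in PlusDox and 1159 in NoDox under TGFβ. Besides Fosl1, an AP-1 gene given with its family, the called members were Etv5, Phlda1, Epha2, Emp1 and Tnfrsf12a, with ratios between 1.16 and 2.09. Not all feedback genes differed. Spry1 had ratios of 0.01 and −0.61, Spred3 of −0.24 and −0.80 and Epha4 of −0.15 and −0.36, and Ccnd1, encoding cyclin D1, had ratios of 0.68 and 0.66, short of the threshold in both pairs.

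AP-1 transcription factors are dimers of FOS, JUN and ATF proteins. Fos, Fosb, Fosl1 and Atf3 were called higher in both pairs, 4 of the 10 tested, against 5.26% of all tested genes. Of these 10, 0 were called lower in both pairs. Fos had 1718 in PlusDox and 157.2 in NoDox under SB505124, and 1977 in PlusDox and 207.0 in NoDox under TGFβ, 10.9-fold and 9.51-fold. Fosl1, encoding FRA1, had 189.7 in PlusDox and 8.64 in NoDox under SB505124, and 63.4 in PlusDox and 1.05 in NoDox under TGFβ. That last value was 1 read, so the ratio of 4.97 under TGFβ has a counting interval of 3.38 to 11.2. Jun, Junb and Jund were not called in both pairs. Jun had 4624 in PlusDox and 5788 in NoDox under SB505124, and 4450 in PlusDox and 10130 in NoDox under TGFβ, Junb had ratios of 0.79 and 0.94, and Jund had ratios of −0.04 and −0.03. Among the 14 immediate early genes, which respond within minutes to growth factors, Egr3 and Arc were called higher in both pairs (14.3%). Egr1 was called only under SB505124 (ratios 1.46 and 0.95), and the difference between the pairs was not tested. Myc, encoding a growth-promoting transcription factor, had 4906 in PlusDox and 3087 in NoDox under SB505124, and 3847 in PlusDox and 2436 in NoDox under TGFβ (ratios 0.67 and 0.66), and was not called.

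Of the 12 EGF family ligands and receptors tested, 4 ligands were called higher in both pairs and no receptor was. That was 33.3% of the list, against 5.26% of all tested genes. Areg, encoding amphiregulin, had 3070 in PlusDox and 116.6 in NoDox under SB505124, and 1612 in PlusDox and 55.7 in NoDox under TGFβ, 26.1-fold and 28.5-fold. Ereg, encoding epiregulin and next to Areg on chromosome 5, had 2577 in PlusDox and 233.2 in NoDox under SB505124, and 1256 in PlusDox and 99.8 in NoDox under TGFβ. Both ligand genes were thus more than 10-fold higher in each pair. Btc, encoding betacellulin, had ratios of 1.13 in each pair, and Hbegf, encoding heparin-binding EGF, of 1.11 and 1.03. Tgfa had 2531 in PlusDox and 1392 in NoDox under SB505124, and 1921 in PlusDox and 971.8 in NoDox under TGFβ, just short of the threshold. The receptor genes ran the other way without being called, Egfr with ratios of −0.28 and −0.24, Erbb2 of −0.88 and −0.84 and Erbb3 of −0.39 and −0.55. Secreted inflammatory signals gave 4 genes of 19 called higher in both pairs (21.1%, against the same 5.26%). Lif, an IL-6 family cytokine gene, had 1661 in PlusDox and 434.5 in NoDox under SB505124, and 1592 in PlusDox and 480.1 in NoDox under TGFβ. Csf2, encoding GM-CSF, had 125.0 in PlusDox and 23.3 in NoDox under SB505124, and 158.4 in PlusDox and 26.3 in NoDox under TGFβ. Il1a and the neutrophil chemokine gene Cxcl3 were the other called members, while Cxcl1, Cxcl2 and Ccl2 had ratios between −0.18 and 0.31.

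**Figure D2:**
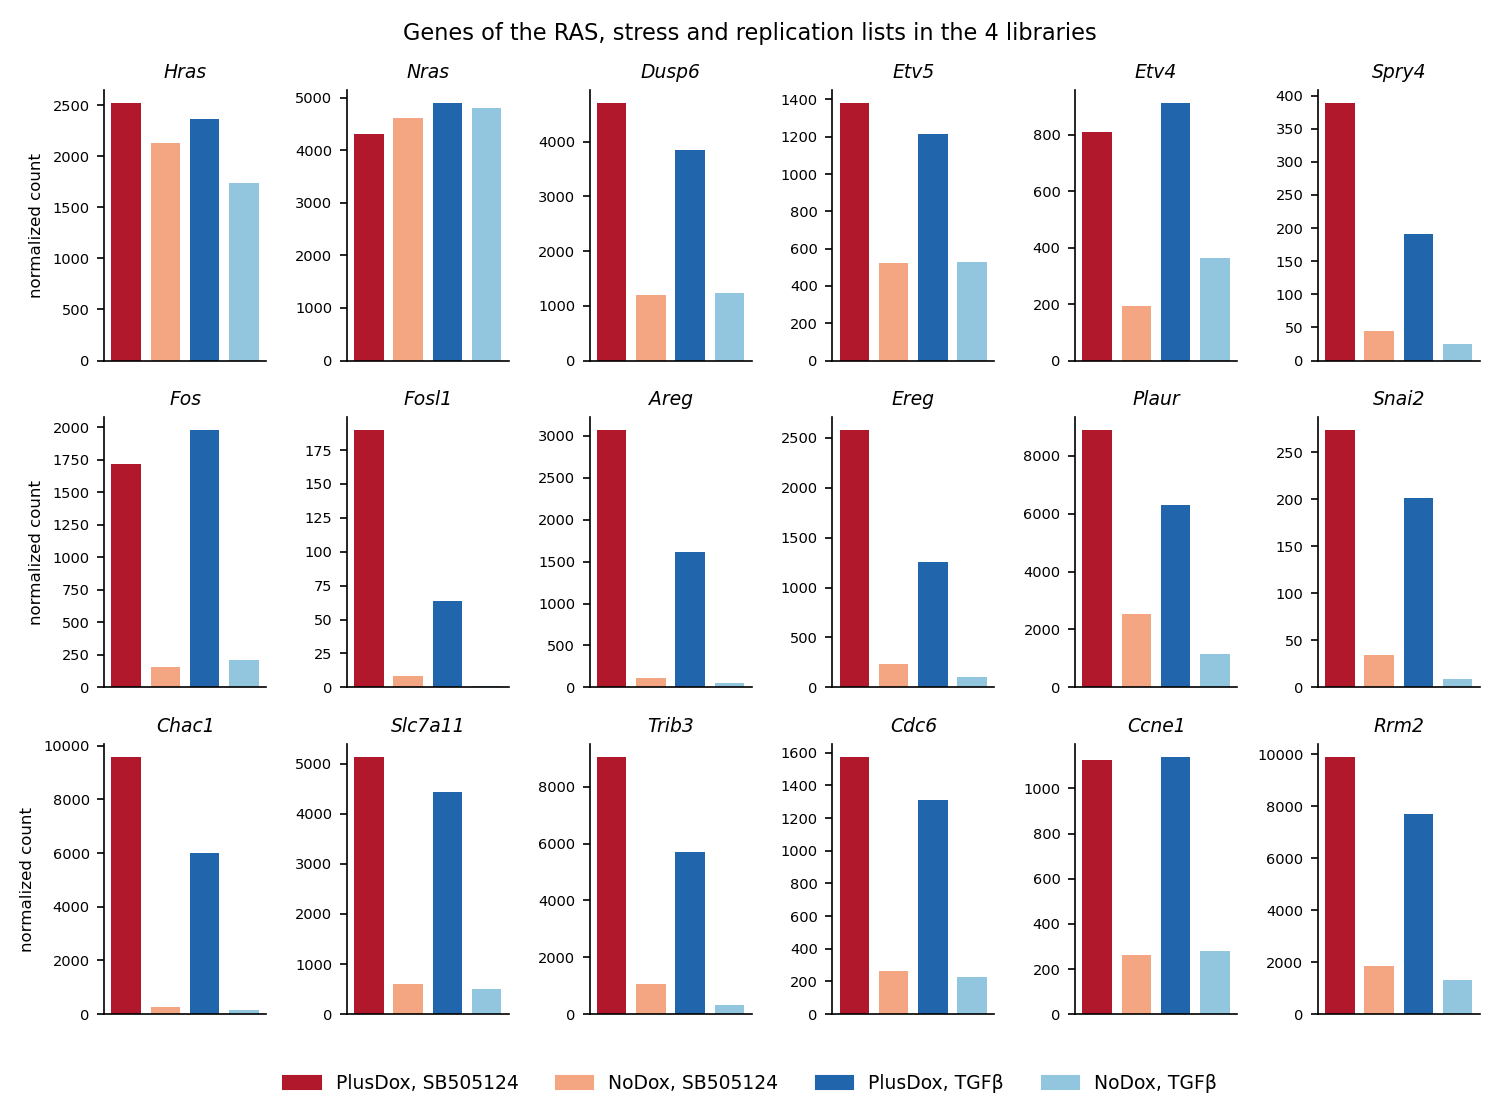
Normalised read count (vertical axes, each from 0) of 18 genes in the PlusDox and NoDox libraries under SB505124 (red shades) and under TGFβ (blue shades), 1 bar per library. Hras and Nras were not called in either pair, and the other 16 genes, from Dusp6 to Rrm2, were at least 2-fold higher with doxycycline in both.

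Of 25 genes of the G1 to S transition and DNA replication tested, 19 were called higher in both pairs and 0 lower. Among all tested genes 5.26% were called higher. In all 25 replication genes both PlusDox libraries were above both NoDox libraries, an order held by 34.3% of all tested genes. The opposite order held for 33.6% of all tested genes. The median ratio of the list was 1.38 under SB505124 and 1.37 under TGFβ. Cdc6, which loads the MCM helicase onto replication origins, had 1573 in PlusDox and 266.0 in NoDox under SB505124, and 1307 in PlusDox and 229.0 in NoDox under TGFβ. Ccne1, encoding cyclin E1, had 1125 in PlusDox and 263.5 in NoDox under SB505124, and 1140 in PlusDox and 278.4 in NoDox under TGFβ. Its paralogue Ccne2 was also called. Rrm2, the regulated subunit of ribonucleotide reductase, had 9896 in PlusDox and 1858 in NoDox under SB505124, and 7688 in PlusDox and 1311 in NoDox under TGFβ. The 6 members that were not called, Mcm2, Mcm7, Gins2, Pcna, Rrm1 and Chaf1b, had ratios between 0.71 and 1.29. Families chosen after their values were seen held related genes. Of 23 origin licensing and firing genes, which share members with this list, 17 were called higher in both pairs, and of 31 Fanconi anaemia and homologous recombination genes 19 were, both with 0 lower.

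Mitosis genes did not reach the call in both pairs. Of 23 tested, 0 were called the same way in both, with a median ratio of 0.21 under SB505124 and 0.95 under TGFβ. In 15 of the 23 both PlusDox libraries were above both NoDox libraries, an order held by 34.3% of all tested genes. The opposite order held for 0, against 33.6% of all tested genes. Under TGFβ 10 mitosis genes were called higher, against 7.57% of all tested genes. The NoDox TGFβ library was the lowest of the 4 for 22 of the 23 genes, a place it held for 3692 of the 13443 tested genes (27.5%). Cdk1, the mitotic kinase, had 6438 in PlusDox and 5098 in NoDox under SB505124, and 5867 in PlusDox and 2656 in NoDox under TGFβ. Mki67, a marker of cycling cells, had 9873 in PlusDox and 9399 in NoDox under SB505124, and 9323 in PlusDox and 6265 in NoDox under TGFβ. With both PlusDox libraries set against the NoDox TGFβ library alone 10 mitosis genes were called higher, and against the NoDox SB505124 library alone 0 were. Each of these counts used 1 ratio of a TGFβ to an SB505124 library or the reverse, so it mixes doxycycline with treatment. Whether the pairs differed for this list was not tested. Among 19 CDK inhibitor and p53 target genes, 3 were called higher (15.8%) and 1 lower (5.26%) in both pairs. Among all tested genes these shares were 5.26% and 6.06%. Cdkn1a, encoding the CDK inhibitor p21, had 5967 in PlusDox and 2092 in NoDox under SB505124, and 4081 in PlusDox and 1116 in NoDox under TGFβ. Gdf15, a secreted stress cytokine gene, had 5336 in PlusDox and 720.4 in NoDox under SB505124, and 1966 in PlusDox and 140.8 in NoDox under TGFβ. Mdm2, the p53 ubiquitin ligase gene, was the other higher call, and Sesn1 the lower one. Of the p53 targets of the apoptotic arm, none was called in both pairs. Bax and Pmaip1 had ratios between −0.11 and 0.35, Bbc3 of 0.96 and 0.43, Perp of 0.83 and 1.01 and Aen of 0.98 and 0.85.

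Genes of the amino acid stress response were among the largest differences. ATF4 is the transcription factor that cells make more of when amino acids are short or the endoplasmic reticulum (ER) is stressed, and it induces genes for amino acid import and synthesis. Of 24 such genes, 16 were called higher in both pairs, against 5.26% of all tested genes, and 0 lower. Their median ratios were 1.51 under SB505124 and 1.74 under TGFβ. Chac1, a glutathione-degrading enzyme gene (chromosome 2, 119351242 to 119354326), had 9576 in PlusDox and 272.1 in NoDox under SB505124, and 5984 in PlusDox and 154.4 in NoDox under TGFβ, 35.1-fold and 38.5-fold. Trib3, a pseudokinase gene, had 9046 in PlusDox and 1068 in NoDox under SB505124, and 5699 in PlusDox and 319.4 in NoDox under TGFβ. Slc7a11, the cystine importer gene, had 5135 in PlusDox and 609.8 in NoDox under SB505124, and 4436 in PlusDox and 498.0 in NoDox under TGFβ. All 3 genes had both PlusDox libraries above both NoDox libraries, as did 34.3% of all tested genes. The hormone gene Fgf21 had 230.6 in PlusDox and 13.8 in NoDox under SB505124, and 148.3 in PlusDox and 3.15 in NoDox under TGFβ. Atf4 itself had 19290 in PlusDox and 7251 in NoDox under SB505124, and 15269 in PlusDox and 4800 in NoDox under TGFβ. Ddit3, encoding CHOP, had ratios of 2.88 and 2.46, and the synthesis genes Asns, Psph, Shmt2 and Mthfd2 had ratios between 1.42 and 3.20. Aminoacyl-tRNA synthetase genes, which charge tRNAs, were chosen after their values were seen. Of 20, 8 were called higher in both pairs, against the same 5.26%, and 0 lower, with medians of 0.94 and 0.83.

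ER chaperone genes did not share this. Of 20 tested, 0 were called higher and 1 lower in both pairs, and the medians were 0.09 under SB505124 and 0.05 under TGFβ. The lower gene was Xbp1, encoding a transcription factor of the unfolded protein response, with 16011 in PlusDox and 33175 in NoDox under SB505124, and 12133 in PlusDox and 28166 in NoDox under TGFβ. Of 24 mitochondrial chaperone, protease and ribosome genes, Hspd1, encoding HSP60, was called higher, and of 26 nuclear genes for oxidative phosphorylation subunits 0 were called in either direction. Of 12 heat shock genes, Hspb1 and Hspa1b were called lower. Hspa1b has a near-identical copy, Hspa1a, so its count is uncertain. Among 17 NRF2 and pentose phosphate genes 3 were called higher, Slc7a11, the quinone reductase gene Nqo1 and Gclc, the catalytic subunit gene of glutathione synthesis. Nqo1 had 344.4 in PlusDox and 57.9 in NoDox under SB505124, and 321.4 in PlusDox and 53.6 in NoDox under TGFβ. Genes of sterol and fatty acid synthesis were mostly higher but short of the threshold, with 4 of 26 called higher, 0 called lower and 24 with ratios above 0 in both pairs. Idi1, Msmo1 and Elovl6 were among the called members, with ratios between 1.06 and 1.79.

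Promoter sequences of the called stress and replication genes are shown because the listed groups are known targets of ATF4 and of E2F factors. They are from RefSeq (GRCm38.p6), run 5′ to 3′ on the gene's strand, and end before the transcript start that RefSeq's promoter table uses, from which distances are counted. For Cdc6 and Slc7a11 that start lies inside the gene's annotated span, whose outermost start is further upstream. The ATF4 motif searched was TGATGNAA and the E2F motif TTTCCCGC or TTTGGCGC, on both strands, over 250 bases before to 50 after the start. Capitals mark a match, written as its reverse complement where it lies on the other strand.
Chac1 (chr2:119350998-119351107, + strand, ATF4 motif 193 bases upstream): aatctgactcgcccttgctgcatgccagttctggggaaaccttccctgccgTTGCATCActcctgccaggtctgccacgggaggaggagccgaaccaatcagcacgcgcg
Slc7a11 (chr3:50443614-50443723, − strand, ATF4 motifs 66 and 47 bases upstream): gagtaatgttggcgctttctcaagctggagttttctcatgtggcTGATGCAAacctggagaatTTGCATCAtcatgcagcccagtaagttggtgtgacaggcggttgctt
Asns (chr6:7693210-7693319, − strand, ATF4 motif 23 bases upstream): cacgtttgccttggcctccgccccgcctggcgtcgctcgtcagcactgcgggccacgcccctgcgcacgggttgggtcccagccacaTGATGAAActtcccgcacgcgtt
Cdc6 (chr11:98907962-98908071, + strand, E2F motif 138 bases upstream): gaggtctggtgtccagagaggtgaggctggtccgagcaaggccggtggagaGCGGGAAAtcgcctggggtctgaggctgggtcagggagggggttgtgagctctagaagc
Mcm6 (chr1:128359726-128359835, − strand, E2F motifs 110 and 47 bases upstream): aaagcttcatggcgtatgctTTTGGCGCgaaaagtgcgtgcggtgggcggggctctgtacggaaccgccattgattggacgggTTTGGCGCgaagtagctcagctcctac

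The ATF4 motif was in the promoters of 5 of the 13 called ATF4 list genes with an entry (38.5%), namely Chac1, Trib3, Asns, Slc7a11 and Fgf21. It was in 6.29% of the promoters of all 525 genes called higher in both pairs with an entry, in 3% of the 567 called lower and in 2.72% of 10089 tested genes. The E2F motif, added after the values were seen, was in 6 of 14 called replication genes (42.9%), Mcm3, Mcm5, Mcm6, Cdc6, Cdt1 and Pola1, in 5.14% of genes called higher, 1.59% of those called lower and 3.34% of tested genes. The AP-1 motif TGANTCA was in 10.9% of genes called higher, 7.94% of those called lower and 6.67% of tested genes. The ETS motif CCGGAAGT was in 4.57% of genes called higher and 2.65% of those called lower, both below the 8.84% of tested genes. The CRE motif TGACGTCA was in 3.43% of genes called higher, 1.76% of those called lower and 3.64% of tested genes. The E-box CACGTG was in 10.1% of genes called higher, 10.4% of those called lower and 11.5% of tested genes, and the interferon response element in 2.48%, 4.94% and 3.64% in the same order. A match is a description of the sequence and not of binding, and these shares were not tested.

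Of 23 ductal and progenitor genes, 1 was called higher and 1 lower in both pairs. Hnf4a, encoding a nuclear receptor of foregut epithelia, had 2337 in PlusDox and 1003 in NoDox under SB505124, and 3197 in PlusDox and 1430 in NoDox under TGFβ. Prom1, encoding the surface protein CD133, had 13502 in PlusDox and 43601 in NoDox under SB505124, and 15669 in PlusDox and 41985 in NoDox under TGFβ. Krt19, a ductal keratin gene, had 27971 in PlusDox and 35175 in NoDox under SB505124, and 26741 in PlusDox and 17801 in NoDox under TGFβ, so that its ratio was −0.33 in the SB505124 pair and 0.59 in the TGFβ pair. The transcription factor genes Sox9, Pdx1, Foxa2 and Gata6 had ratios between −0.30 and 0.52. Of 3 acinar genes tested, Amy1, a salivary-type amylase gene with near-identical relatives, was called lower at values of at most 28.5. The other list of gland cells, endocrine, had 1 tested gene, Nkx2-2 (at most 60.5), and 0 called in both pairs. Fibroblast and stellate markers, with 2 tested, and immune and endothelial markers, with 4, also had 0 called in both pairs. Under SB505124 both fibroblast markers, Col1a1 and Pdgfra, were called lower (ratios −1.52 and −1.74), at values of at most 17.3. Under TGFβ their ratios were 0.55 and −0.44.

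Of 13 gastric-type genes, Anxa10, Vsig1, Tff3 and Ctse were called higher in both pairs and Lyz1 lower. Anxa10, an annexin gene of gastric epithelium, had 223.2 in PlusDox and 6.05 in NoDox under SB505124, and 101.9 in PlusDox and 5.25 in NoDox under TGFβ. Vsig1, a gastric adhesion gene, had 531.2 in PlusDox and 76.0 in NoDox under SB505124, and 586.2 in PlusDox and 84.0 in NoDox under TGFβ. The trefoil factor gene Tff3 had 329.6 in PlusDox and 80.3 in NoDox under SB505124, and 140.3 in PlusDox and 14.7 in NoDox under TGFβ. The gastric mucin gene Muc5ac had ratios of 0.77 and 0.86. Of 15 squamous and stress keratin genes 7 were called higher and 2 lower, with medians of 1.28 and 1.36. Sfn, encoding 14-3-3σ, had 477.6 in PlusDox and 89.0 in NoDox under SB505124, and 2209 in PlusDox and 384.5 in NoDox under TGFβ. Krt6a, Krt17, Krt13, Krt4, Dsg3 and S100a9 were the other higher calls, at values of at most 271.5, and Krt6a has a near-identical relative. The squamous master factor gene Trp63 was called lower, with 19.3 in PlusDox and 40.6 in NoDox under SB505124, and 14.7 in PlusDox and 52.5 in NoDox under TGFβ. Sprr1a, a cornified envelope gene, was also lower, with 1838 in PlusDox and 8806 in NoDox under SB505124, and 1682 in PlusDox and 6459 in NoDox under TGFβ.

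**Figure D3:**
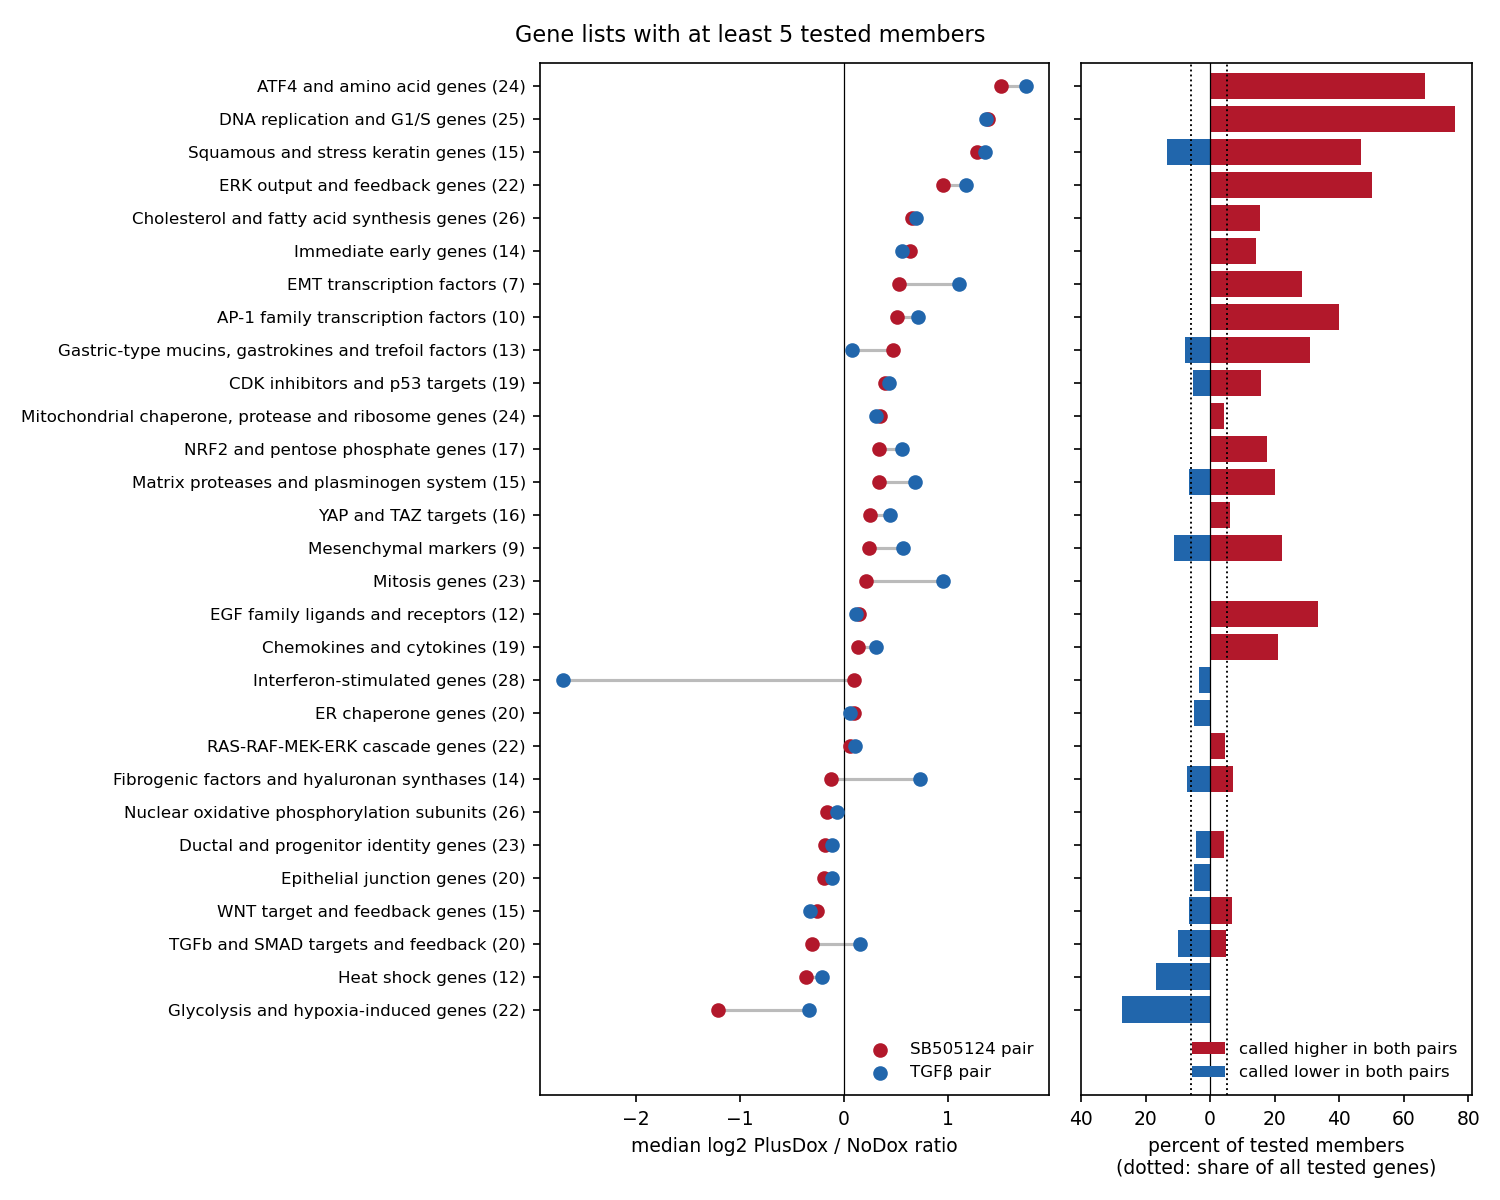
Median log2 ratio of each fixed gene list with at least 5 tested members (left, a point per pair) and percent of its tested members called higher or lower in both pairs (right, dotted lines at 5.26% and 6.06% of all tested genes). ATF4, replication, squamous and ERK output lists lie highest in both pairs, and interferon-stimulated genes have medians of 0.10 in the SB505124 pair and −2.70 in the TGFβ pair.

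In EMT epithelial cells lose epithelial features, and of the 7 EMT factor genes tested 2 were called higher in both pairs and 0 lower. Snai2, encoding the EMT factor SLUG, had 273.8 in PlusDox and 34.6 in NoDox under SB505124, and 201.4 in PlusDox and 8.40 in NoDox under TGFβ, and Snai3 was the other call. Of 9 mesenchymal markers, S100a4 and the receptor kinase gene Axl were called higher and Sparc lower. Axl had 1268 in PlusDox and 185.7 in NoDox under SB505124, and 2274 in PlusDox and 249.0 in NoDox under TGFβ. It was also the only member of 16 YAP and TAZ targets called in both pairs. Of that list, 2 were called higher under SB505124 and 4 under TGFβ, against 7.82% and 7.57% of all tested genes. Of 20 epithelial junction genes, Cldn18 was the only call in both pairs, lower at values of at most 58.7. Cldn3 was called lower under SB505124 only (ratios −1.01 and −0.47), and Cdh1, encoding E-cadherin, had ratios of −0.14 and −0.12. In the protease list, 3 of 15 genes were called higher and Mmp15 lower. Serpinb2, encoding plasminogen activator inhibitor 2, had 511.1 in PlusDox and 17.3 in NoDox under SB505124, and 258.0 in PlusDox and 4 reads in NoDox under TGFβ. Mmp9 had 22.3 in PlusDox and 0 in NoDox under SB505124, at least 8.61-fold higher at the floor of 3 counts in that library, and 43.0 in PlusDox and 2.10 in NoDox under TGFβ. Mmp15, a membrane-bound metalloprotease gene, had 1402 in PlusDox and 5282 in NoDox under SB505124, and 2000 in PlusDox and 7913 in NoDox under TGFβ.

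Few genes of the TGFβ response were called the same way in both pairs, and among all tested genes 11.3% were. Of 20 SMAD target and feedback genes, Inhba was called higher (5%) and Ltbp2 and Tgfb2 lower (10%). Among all tested genes these shares were 5.26% and 6.06%. The medians of the list were −0.30 under SB505124 and 0.15 under TGFβ. Tgfb2, a TGFβ ligand gene, had 351.9 in PlusDox and 1787 in NoDox under SB505124, and 445.9 in PlusDox and 1321 in NoDox under TGFβ. Of 14 fibrogenic genes, Has2 was called higher and Edn1 lower (7.14% each). Has2, the hyaluronan synthase gene, had 28.3 in PlusDox and 8.64 in NoDox under SB505124, and 166.4 in PlusDox and 17.9 in NoDox under TGFβ. Snai1, an EMT factor gene, had 3.72 in PlusDox and 6.91 in NoDox under SB505124, and 70.2 in PlusDox and 10.5 in NoDox under TGFβ. For Snai1 the PlusDox TGFβ library stood above the other 3, and the difference between the pairs was not tested. Smad7, the SMAD feedback inhibitor, had 354.9 in PlusDox and 320.5 in NoDox under SB505124, and 1710 in PlusDox and 1022 in NoDox under TGFβ. Rreb1, a RAS-responsive zinc finger factor gene, had ratios of −0.33 and 0.04. In the WNT list of 15 genes, the feedback gene Notum was called higher and the transcription factor gene Sp5 lower.

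By the smaller of its ratios in the pairs, Dynap, encoding a dynactin-associated membrane protein, led the genes called higher, with 305.8 in PlusDox and 3.46 in NoDox under SB505124, and 238.8 in PlusDox and 3.15 in NoDox under TGFβ. The NoDox values were 4 and 3 reads, so the ratio of 6.11 under SB505124 has a counting interval of 5.10 to 8.35. Klk6, a kallikrein protease gene, had 235.1 in PlusDox and 0.864 in NoDox under SB505124, and 61.1 in PlusDox and 1.05 in NoDox under TGFβ, where each NoDox value was 1 read. Cnfn, encoding cornifelin, had 486.5 in PlusDox and 15.5 in NoDox under SB505124, and 84.9 in PlusDox and 1.05 in NoDox under TGFβ. Dynap and Klk6 were near 0 without doxycycline in both pairs and moderate with it. Cnfn was near 0 without doxycycline only under TGFβ, and its NoDox value under SB505124 was 18 reads. The protease genes Cpa4 and Tmprss11e and Mcpt8, a protease gene known from mouse basophils, completed the 12 highest together with Chac1, Serpinb2, Areg, Fosl1, Anxa10 and Fgf21. Mcpt8 had 159.2 in PlusDox and 11.2 in NoDox under SB505124, and 139.2 in PlusDox and 9.46 in NoDox under TGFβ, while the summed immune and endothelial markers were 323.6 in PlusDox and 338.6 in NoDox under SB505124 and 426.7 in PlusDox and 324.6 in NoDox under TGFβ.

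The genes called lower were on the whole less abundant, with a median mean value of 151 normalised counts, against 423.1 for those called higher and 908.6 for all tested genes. Adamtsl2, encoding a secreted glycoprotein of the extracellular matrix, was at 0 in both PlusDox libraries, against 68.2 in NoDox under SB505124 and 98.8 in NoDox under TGFβ. At the floor of 3 counts per library it was at least 30.6-fold lower under SB505124 and at least 29.1-fold lower under TGFβ. Kcnt1, a sodium-activated potassium channel gene, had 11.2 in PlusDox and 392.2 in NoDox under SB505124, and 1.13 in PlusDox and 271.1 in NoDox under TGFβ. Fbn2, encoding fibrillin-2 of elastic microfibrils, had 17.1 in PlusDox and 419.8 in NoDox under SB505124, and 28.3 in PlusDox and 860.4 in NoDox under TGFβ. In each of these genes the PlusDox and NoDox libraries were far apart. The most abundant of the 12 lowest was 2210407C18Rik, with 271.5 in PlusDox and 5653 in NoDox under SB505124, and 285.2 in PlusDox and 5903 in NoDox under TGFβ. Avpr1a, a vasopressin receptor gene, had 40.2 in PlusDox and 729.9 in NoDox under SB505124, and 48.7 in PlusDox and 837.3 in NoDox under TGFβ, 17.8-fold and 16.9-fold lower. Sema3d, a secreted guidance cue gene, had 57.3 in PlusDox and 994.2 in NoDox under SB505124, and 31.7 in PlusDox and 485.4 in NoDox under TGFβ. The rest were BB123696, Gfra1, Svep1, Dpysl4, Mgarp and Rnase1, with ratios of −3.91 or below in both pairs.

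Of 18 ADAMTS and ADAMTS-like genes, a family chosen after its values were seen, 11 were called lower and 0 higher, against 6.06% lower among all tested genes, with medians of −1.27 and −1.46. Adamts9, a protease of aggregating proteoglycans, had 514.8 in PlusDox and 1266 in NoDox under SB505124, and 751.5 in PlusDox and 2326 in NoDox under TGFβ. Of 22 collagen chain genes, chosen likewise, 6 were called lower and 0 higher. Col4a5, a basement membrane collagen gene, had 979.8 in PlusDox and 2254 in NoDox under SB505124, and 1094 in PlusDox and 2474 in NoDox under TGFβ, while Col4a1 and Col4a2 had ratios between 0.10 and 0.38. Also chosen after their values were seen, 6 of 7 SERPINA protease inhibitor genes and 8 of 12 protocadherin beta genes were called lower. Both are families of close copies, so their counts are uncertain member by member.

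**Figure D4:**
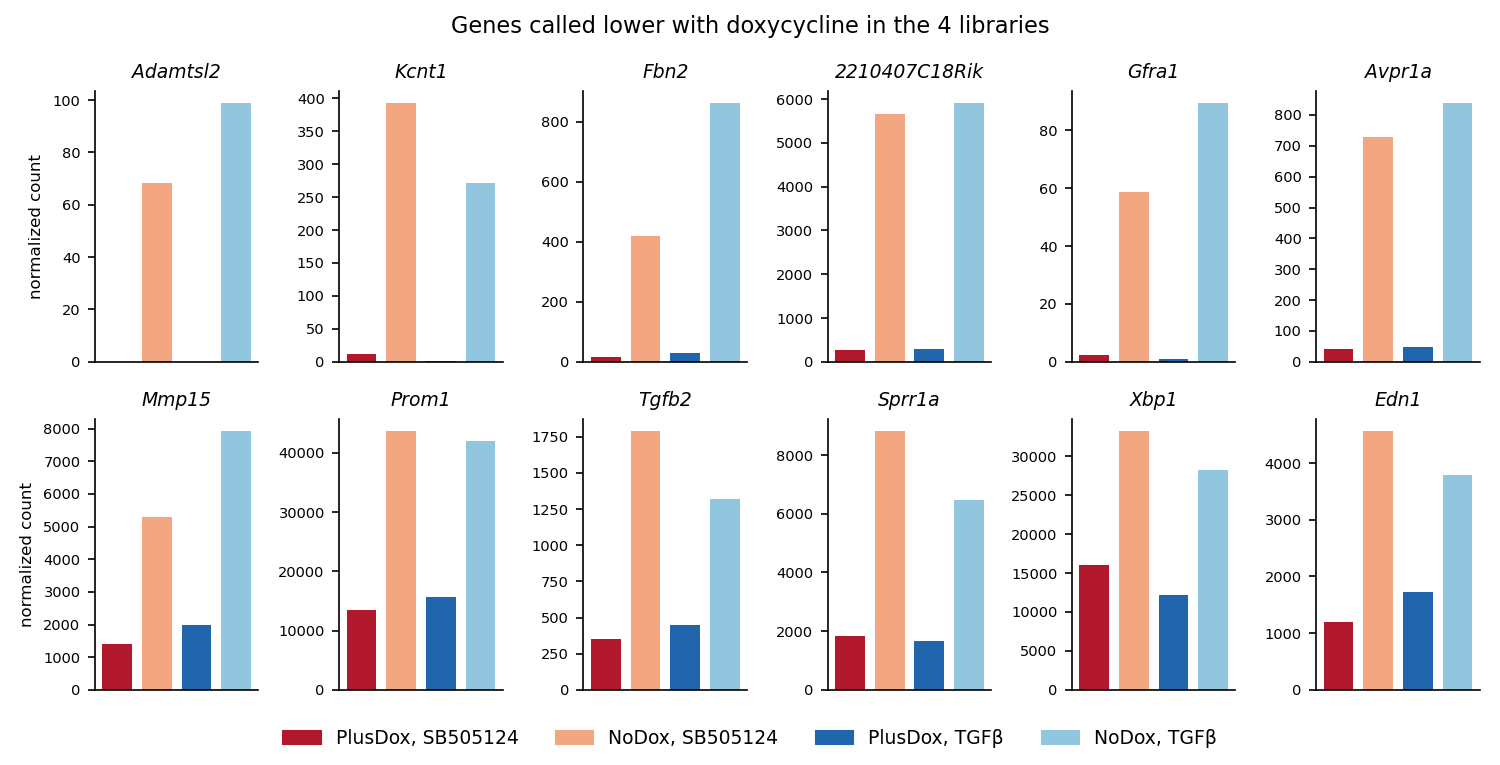
Normalised read count (vertical axes, each from 0) of 12 genes called lower with doxycycline in both pairs, 1 bar per library. In each panel both PlusDox bars are below both NoDox bars, and Adamtsl2 is at 0 in both PlusDox libraries.

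Of 22 glycolysis and hypoxia-induced genes tested, 6 were called lower in both pairs (against 6.06% of all tested genes) and 0 higher. Their medians were −1.21 under SB505124 and −0.34 under TGFβ. Under SB505124 12 were called lower (against 9.46% of all tested genes) and 0 higher. In the TGFβ pair 6 were called lower (against 9.32%) and 1 higher. The NoDox SB505124 library was the highest of the 4 for 19 of the 22 genes, a place it held for 3265 of the 13443 tested genes (24.3%). Slc16a3, the lactate exporter gene, had 136.9 in PlusDox and 2867 in NoDox under SB505124, and 235.4 in PlusDox and 1170 in NoDox under TGFβ. Bnip3, a mitophagy gene, had 848.8 in PlusDox and 7515 in NoDox under SB505124, and 727.7 in PlusDox and 2467 in NoDox under TGFβ. Both were lower with doxycycline in each pair, and the NoDox values themselves differed over 2-fold. Pfkl, Aldoa, Pdk1 and Ankrd37 were the other calls, while Hk2, encoding hexokinase 2, had ratios of 0.55 and 1.06, Vegfa of 0.50 and 0.81 and Pfkfb3 of 0.32 and 0.50. Against the NoDox SB505124 library alone, the PlusDox libraries gave 12 lower calls, and against the NoDox TGFβ library alone 5. As 1 ratio behind each count crossed the treatments, doxycycline and treatment are mixed in both counts.

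Of 28 interferon-stimulated genes tested, 27 were called lower in the TGFβ pair (against 9.32% of all tested genes), while in the SB505124 pair 3 were called higher and 1 lower. Gbp2 was the only gene called lower in both. The NoDox TGFβ library was the highest of the 4 for all 28 genes, a place it held for 3700 of the 13443 tested genes (27.5%), and the PlusDox TGFβ library was the lowest for 24. Isg15, a ubiquitin-like modifier gene, had 927.7 in PlusDox and 686.7 in NoDox under SB505124, and 222.9 in PlusDox and 3377 in NoDox under TGFβ. Irf7, a transcription factor gene of the interferon response, had 1806 in PlusDox and 1420 in NoDox under SB505124, and 481.0 in PlusDox and 5895 in NoDox under TGFβ. The SB505124 libraries lay between the TGFβ libraries for both genes. Set against the NoDox TGFβ library alone, both PlusDox libraries gave 20 lower calls of 28, and against the NoDox SB505124 library alone 1. These counts also mix doxycycline with treatment, since 1 ratio behind each crossed the treatments. Several genes called in opposite directions were of this kind, among them Mx1, Oas2, Oasl1 and Usp18, each higher with doxycycline under SB505124 and lower under TGFβ. Only 1 NoDox TGFβ library was made, so a difference of that library and an effect of doxycycline under TGFβ cannot be told apart.

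**Figure D5:**
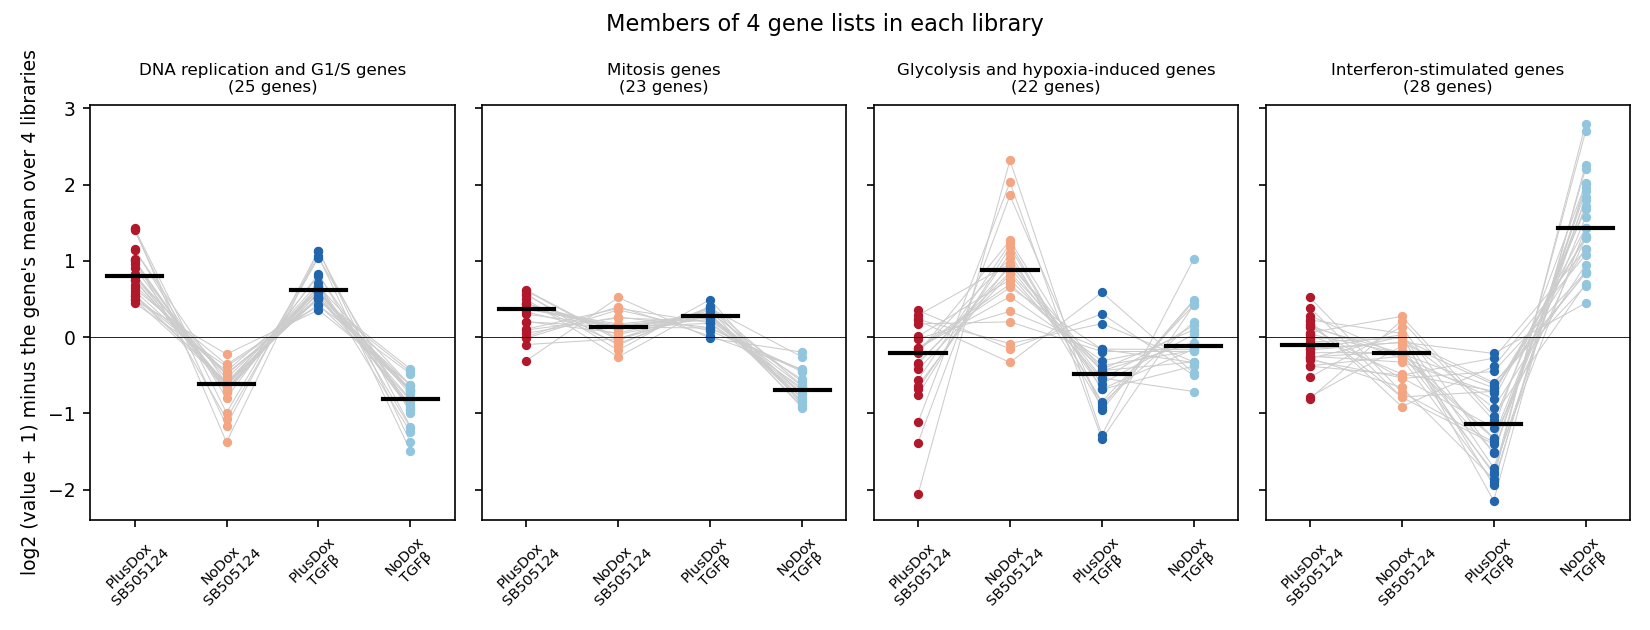
Members of 4 gene lists in each library, as log2 (value + 1) minus the gene's mean over the 4 libraries (points, with a grey line per gene and a black bar at the median). Replication genes are higher in both PlusDox libraries, mitosis genes are lowest in the NoDox TGFβ library, glycolysis genes are highest in the NoDox SB505124 library, and interferon-stimulated genes are highest in the NoDox TGFβ library.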

How the data were processed

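RNA-seq reads were counted and normalized by the authors. The deposited signal is 1 normalized count per gene and library, and per the submitters' processing notes mm10 was the build and the tools were HTSeq 0.6.1p1, DESeq2 3.4, Bowtie2, HOMER and FastQC 0.11.5, with no roles given. Per the labels' protocols, RNA went into an unstranded kit (TruSeq v2), so overlapping genes cannot be told apart. Of 101 named genes 8 overlap another protein-coding gene, Fosl1 and Ccne2 among them. Dividing each library by its smallest step gave whole reads for 100% of values (tolerance 0.001). These reads gave depth and the exact (Clopper-Pearson) 95% counting intervals. The test was the fold and interval rule described with the results. Python 3.11.15 with scipy 1.17.1 was used, and edgeR 4.0.16 and limma 3.58.1 in R 4.3.3 for alternative fits. The steps were tested on simulated data.

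Genes were named by rule. These were the 12 with the largest smaller-of-both ratios in each direction, among genes called in both pairs with at least 50 in the higher library of each pair. Up to 4 called members per list, or all where at most 5 were called, and 12 always-given genes were added. Other genes named were chosen after their values were seen, to fill in a list or family. The members, the 33 lists and the rule were chosen with earlier results of these data known, and 7 families and the E2F motif after the values were seen. Of the table's gene names 25 had become dates in a spreadsheet, and these genes were kept but are not named. Positions are from RefSeq (GRCm38.p6). Some genes that the rule took are not reported here. ChIP-seq, ATAC-seq and other RNA-seq samples were not analysed here.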

Additional observations from a re-analysis of the deposited data

Results flagged for a closer look

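Il11, a fibrogenic cytokine gene, had opposite calls in the pairs. It had 1.49 in PlusDox and 7.77 in NoDox organoids under SB505124 (log2 ratio −1.82), and 31.7 in PlusDox and 5.25 in NoDox organoids under TGFβ (2.39). The PlusDox SB505124 value was 2 reads and the NoDox TGFβ value 5 reads. The difference between the pairs was not tested, since each ratio rests on 1 library per condition.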

How the results depend on the processing

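No paired analysis was possible because each organoid condition had 1 library and carried no replicate number to block by, and libraries were matched by treatment alone. At a fold threshold of 1.5, 1610 genes were called higher and 1642 lower in both pairs, 42 in opposite directions, 4671 under SB505124 and 4393 under TGFβ. Opposite calls were 6 with a pseudocount of 10 and 19 with no counting interval required. Additive fits, whose spread is the difference between the pairs on 1 residual degree of freedom, gave 3113 higher and 2866 lower genes with edgeR's quasi-likelihood test (adjusted p under 0.05), of which 700 and 804 were among the fold calls, and 3119 higher and 3012 lower with limma (700 and 801 shared). They require no minimum fold. Leaving out 1 library, an alternative added after seeing the data, gave 601 to 848 higher and 802 to 1001 lower genes. Both ratios then used the only library left with or without doxycycline, and 1 of them set a TGFβ library against an SB505124 library. These counts thus mix doxycycline with treatment. Scaled to the same total, 53.8% of calls in both pairs were higher, against 46.5%, and the median of all genes moved to 0.09 under SB505124 and 0.05 under TGFβ. Of the recomputed ratios of named genes 727 stayed within their counting interval and 81 fell outside it. Among ratios called in their pair 0 changed sign, and sign changes of uncalled ratios were not counted. Under quantile normalization 2 list medians changed sign. Depth limits genes near the floor of 3 counts.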
